A study of Mus musculus with 2 samples.

Results

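The pentose phosphate pathway enzymes are the products of 7 genes, G6pdx, Pgls, Pgd, Rpia, Rpe, Tkt and Taldo1, chosen by gene symbol among the 69691 rows of each deposited gene table. Their mRNA was measured by poly(A)-selected, single-end RNA sequencing in G1E-ER4, an immortalized male mouse erythroid line without a working Gata1 gene, in which the hormone switches on an introduced GATA-1 joined to the ligand-binding part of the oestrogen receptor. Both libraries come from this 1 line after 24 hours in 10 nM 17beta-estradiol, and the labels number them biological replicates 1 and 2 but tie both to the same biosample record, so whether they are separate cultures is not known. No untreated library was analysed here, so the values describe the induced state, no level can be read as a change, and no p-value is given.

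The pathway starts from glucose 6-phosphate and has an oxidative and a non-oxidative branch. The oxidative branch, through G6pdx, Pgls and Pgd, reduces NADP to NADPH and yields ribulose 5-phosphate. The non-oxidative branch, through Rpia, Rpe, Tkt and Taldo1, makes ribose for nucleotides and exchanges sugar phosphates with glycolysis. In red cells the oxidative branch is the main source of the NADPH that keeps glutathione reduced.

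All 8 erythroid marker genes examined, among them Hbb-bs and Alas2, reached 1 TPM or more in both libraries. TPM is the read count divided by transcript length and scaled to 1000000 per library. The 15 markers of mast cells, granulocytes and macrophages, lymphocytes and fibroblasts were all below 1 TPM, and those of each of these types summed to at most 0.44 TPM in replicate 1 and 0.29 TPM in replicate 2. The tables hold 20412826 expected counts for replicate 1 and 18564086 for replicate 2, where expected means that a read with several possible sources is shared among them.

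Reads of Tkt and Rpe were divided between a full coding transcript and a short transcript that the annotation marks for nonsense-mediated decay, the removal of mRNAs with a premature stop. The first splice junction of each transcript is shown because the transcripts of each gene differ there, though not only there. Lower case gives the last bases of the first exon and capitals the first bases of the next exon, 5′ to 3′ on the plus strand, from the GENCODE M21 transcripts.
Tkt-205: cgcggcaggctcaggGTGTAGTGTCTTTCC
Tkt-201: cgcggcaggctcaggCCACCCCACATCATG
Rpe-205: tacctgcacctggatGCACCCTGCTCTTCA
Rpe-201: ggatgtaatggacggGCATTTTGTTCCCAA

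In Tkt-205 an added exon of 43 bases, at chr14:30557646-30557688 (GRCm38), stood between the first and second exons of the coding transcript Tkt-201. The annotated coding sequence ended 19 bases into it. Rpe-205 left its first exon at an earlier splice site than Rpe-201, joined it to an exon of 20 bases at chr1:66701617-66701636, and lacked the second exon of Rpe-201, of 80 bases at chr1:66706446-66706525. Its coding sequence ended 19 bases into the following exon.

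All 7 enzyme genes were detected, that is, at 1 TPM or more in both libraries, against 41.2% of the 21461 nuclear protein-coding genes. All 7 also reached 10 TPM in both libraries, against 27.7% of those genes, although the coding transcripts of Rpe did not, at 7.90 and 7.07 TPM. Their median level was 97.8 TPM, against a median of 20.7 TPM over the 8840 protein-coding genes detected in both libraries. The least abundant enzyme gene, Rpe, stood above 82.3% of protein-coding genes and the most abundant, Tkt, above 99.7%. Together the 7 genes held 0.233% of all TPM in replicate 1 and 0.273% in replicate 2.

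The oxidative genes lay close to one another. G6pdx, whose product carries out the first and rate-limiting step, had 64.9 TPM in replicate 1 and 76.1 TPM in replicate 2, or 70.5 ± 7.89 TPM (SD, n = 2). It lies on the minus strand at chrX:74409483-74429194, and its coding transcript G6pdx-201 of 13 exons held 98.3% and 98.6% of its TPM. Its expected counts were 2690 and 2878.

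Pgls encodes 6-phosphogluconolactonase, which opens the lactone made in the first step. It had 91.2 and 104 TPM, or 97.8 ± 9.29 TPM (SD, n = 2), and lies at chr8:71592176-71601092. The spread between libraries was close to that of G6pdx, and for both genes replicate 2 was the higher library. Pgls-201, of 5 exons, held 95.6% and 96.4% of the TPM.

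Pgd encodes 6-phosphogluconate dehydrogenase, the other step that yields NADPH. It had 105.4 TPM in replicate 1 and 105.9 TPM in replicate 2, a mean of 106 ± 0.325 TPM (SD, n = 2), and lies on the minus strand at chr4:149149991-149166771. The libraries repeated this level most closely among the 7 genes in absolute terms. The highest oxidative gene exceeded the lowest by 1.5-fold in mean TPM. Pgd exceeded G6pdx in both libraries, by 0.70 and 0.48 on the log2 scale, and Pgls exceeded G6pdx by 0.49 and 0.46. Both directions turned in an upper estimate that added the whole TPM of genes sharing part of their sequence with a member. That gave 112 TPM for G6pdx, against 106 TPM for Pgd and 104 TPM for Pgls.

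The non-oxidative genes covered a wider range, with 62.5-fold between the mean TPM of Tkt and of Rpe over all transcripts and 109-fold over coding transcripts. Rpia, the ribose-5-phosphate isomerase gene that leads to ribose for nucleotides, had 51.4 and 50.7 TPM, or 51.0 ± 0.488 TPM (SD, n = 2). It lies on the minus strand at chr6:70765720-70792232, and Rpia-201 held 98.7% and 95.8% of its TPM. Its levels in the libraries were nearly equal and below those of all 3 oxidative genes.

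Rpe, the epimerase gene that leads to xylulose 5-phosphate, was the lowest with 29.2 and 23.7 TPM, or 26.4 ± 3.87 TPM (SD, n = 2). It lies at chr1:66700831-66719805. It also had the fewest expected counts, 584 in replicate 1 and 451 in replicate 2, to divide among transcripts. The coding transcript Rpe-201 held only 27.1% and 29.8% of Rpe TPM, or 7.90 and 7.07 TPM. Rpe-205, of 759 bases, held 66.9% and 54.0%, and the other decay transcript, Rpe-204, 6.02% and 16.2%.

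Of expected counts, which are not divided by length, Rpe-201 held more than either decay transcript, with 57.6% in replicate 1 and 60.8% in replicate 2. The order of Rpe-201 and Rpe-205 therefore turned between reads and TPM. Of the 724 windows of 36 bases, the read length, that fit in Rpe-205, 92.7% also occur in Rpe-201, and 53 windows do not.

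**Figure D1:**
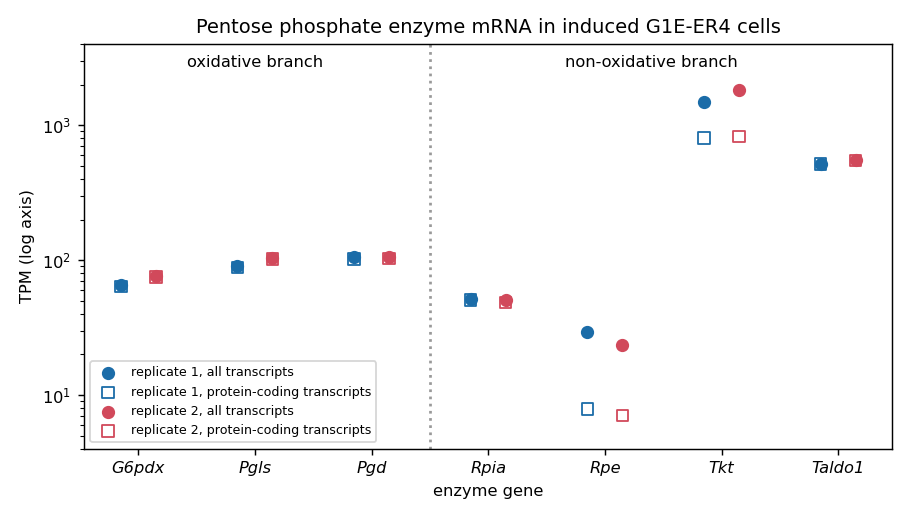
TPM (log axis) of the 7 enzyme genes in replicates 1 and 2, with filled circles for all transcripts of a gene and open squares for its protein-coding transcripts alone. Oxidative genes lie between 64.9 and 106 TPM, Tkt and Taldo1 stand above all others, and circles and squares part only at Rpe and Tkt.

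Tkt, which encodes transketolase, the thiamine-dependent enzyme that moves ketol units between sugar phosphates, was the highest with 1474 and 1826 TPM, or 1650 ± 249 TPM (SD, n = 2). It lies at chr14:30548359-30574720. Its expected counts were 45937 in replicate 1 and 44967 in replicate 2, so the library with more reads had the lower TPM. Before scaling, Tkt-205 had 4588 and 6247 of these counts and Tkt-201 had 41252 and 38596, and replicate 1 had the larger library total.

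Because Tkt-205 has 465 bases and Tkt-201 3225 in the deposited tables, these reads gave Tkt-205 665 and 994 TPM and Tkt-201 806 and 828 TPM. The decay transcript thus held 45.1% of Tkt TPM in replicate 1 and 54.5% in replicate 2, against 9.99% and 13.9% of Tkt expected counts. Tkt-201 was the leading transcript in replicate 1 and Tkt-205 in replicate 2. Of the 430 windows of 36 bases in Tkt-205, 82.1% also occur in Tkt-201 and 77 do not, so the division between them is an estimate. Expected counts per possible start position were 10.7 and 14.5 in Tkt-205, against 12.9 and 12.1 in Tkt-201.

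Taldo1, which encodes transaldolase, the partner of transketolase in returning carbon to glycolysis, had 519 and 548 TPM, or 533 ± 20.7 TPM (SD, n = 2). It lies at chr7:141392199-141402968, and its coding transcript of 8 exons held 99.6% and 99.7% of its TPM. Tkt exceeded Taldo1 by 2.84-fold in replicate 1 and 3.33-fold in replicate 2 over all transcripts. Between coding transcripts alone the difference was 1.56-fold and 1.52-fold, with Tkt still higher in both libraries.

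**Figure D2:**
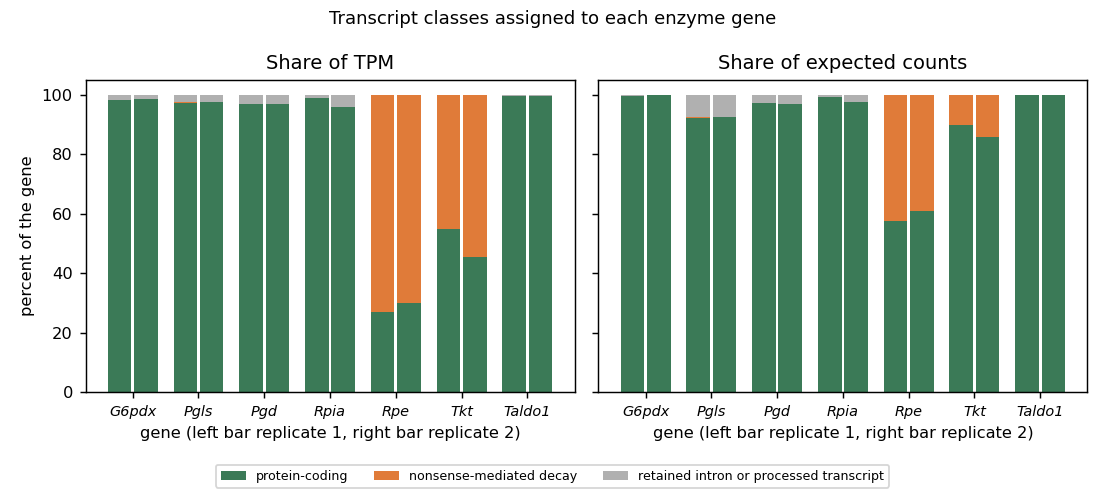
Percent of each gene's TPM (left panel) and expected counts (right panel) on protein-coding, nonsense-mediated decay and other transcripts, for replicates 1 and 2. Decay transcripts took 45.1% and 54.5% of Tkt TPM but 9.99% and 13.9% of Tkt expected counts.

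**Figure D3:**
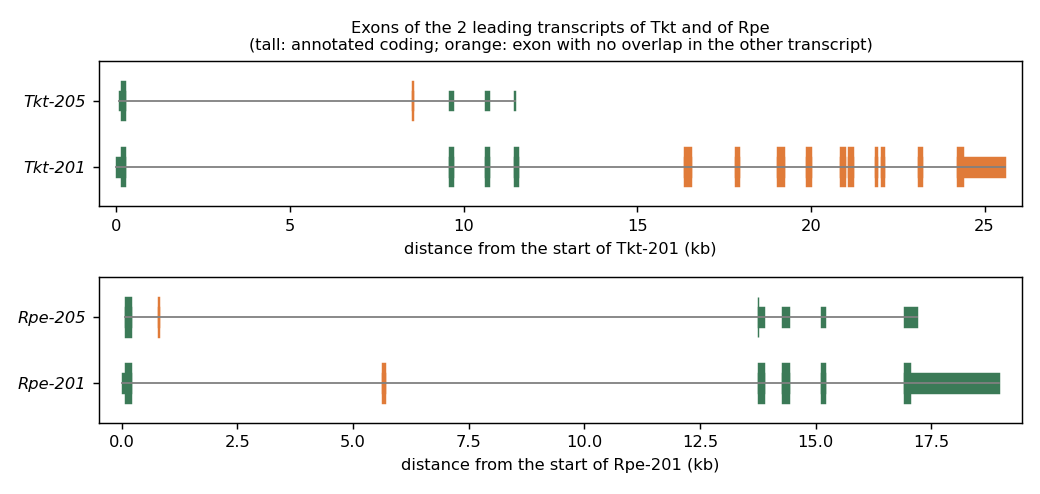
Exons of Tkt-205 and Tkt-201, and of Rpe-205 and Rpe-201, by distance in kb from the start of the coding transcript, with tall boxes for annotated coding sequence and orange for exons with no overlap in the other transcript. Tkt-205 adds an exon of 43 bases and ends in the fourth exon of Tkt-201, and Rpe-205 has an exon of 20 bases and lacks the one of 80 bases.

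Summed by branch, the oxidative genes had 262 TPM in replicate 1 and 286 TPM in replicate 2, against 2073 and 2448 TPM for the non-oxidative genes. The log2 ratio of oxidative to non-oxidative TPM was -3.04 ± 0.08 (SD, n = 2), an 8.23-fold lower oxidative sum. Tkt and Taldo1 made up 85.3% and 86.8% of the TPM of the 7 genes. Over coding transcripts alone the oxidative sum was 5.27-fold lower, and without Tkt 2.23-fold lower, so Tkt carried much of the size of the ratio. Rpia and Rpe, at mean levels of 51.0 and 26.4 TPM, each lay below every oxidative gene, so the sign rested on Tkt and Taldo1.

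The order of levels was Tkt, Taldo1, Pgd, Pgls, G6pdx, Rpia and Rpe in each library, and also over coding transcripts. Pgd and Pgls, with a mean difference of 7.90 TPM, differed by less than the SD of Pgls between libraries, 9.29 TPM. The means of the other neighbours differed by more than either gene's SD, with the smallest such difference, 19.5 TPM, between G6pdx and Rpia. With n = 2 the libraries give only a rough estimate of each SD. By reads alone G6pdx passed Pgls, whose mRNA is the shortest of the 7, in both libraries, so their order depends on the division by length. Rpia passed Pgls by reads in replicate 1, with 1473 against 1323 expected counts. In replicate 2 it did not, with 1306 against 1372. In the upper estimate, with the whole TPM of sequence-sharing genes added, G6pdx also passed Pgd and Pgls in TPM.

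Between the libraries, 0 of the 7 genes differed by more than 1.5-fold in TPM, against 5.22% of the 9351 genes with at least 50 expected counts on average. By direction, 1.55% of those genes passed it as higher in replicate 2 and 3.67% as higher in replicate 1, and 0 of the 7 in either. Rpe was lower in replicate 2 by 0.30 on the log2 scale, and Tkt higher in replicate 2 by 0.31. For Tkt this fell to 0.11 in CPM, expected counts scaled to 1000000 per library, and to 0.04 over coding transcripts. G6pdx was 1.18-fold higher in replicate 2 in CPM, with an exact 95% Clopper-Pearson interval of 1.12 to 1.24 that covers counting error only. For Rpe the same ratio was 0.850, with an interval of 0.749 to 0.962. Intervals of Pgls, Tkt and Taldo1 also lay above 1, while those of Pgd, at 0.962 to 1.06, and Rpia, at 0.904 to 1.05, held 1.

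**Figure D4:**
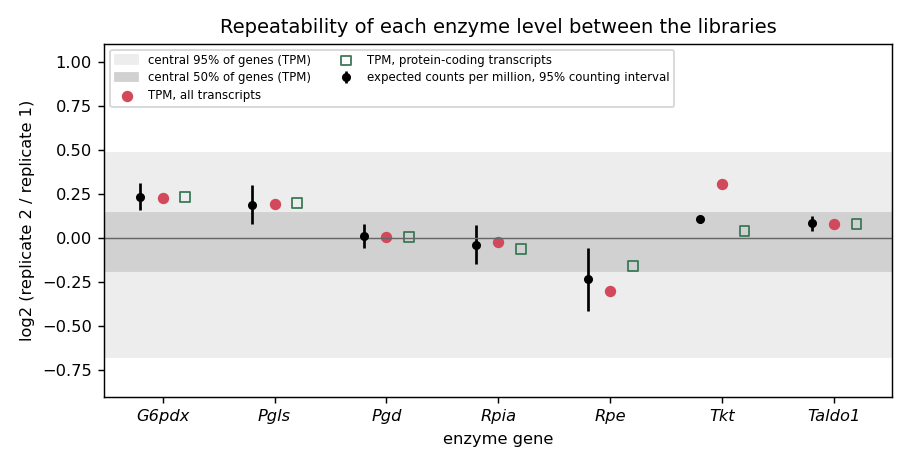
The log2 ratio of replicate 2 over replicate 1 for each enzyme gene, from CPM with its 95% counting interval, from TPM, and from TPM of coding transcripts. Grey bands give the central 95% and 50% of 9351 genes, and all 7 genes lie inside the wider band.

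Genes that encode related enzymes were almost silent. G6pd2, an intronless autosomal copy of G6pdx known from mouse testis, had 0 and 1.13 expected counts, and H6pd, whose product carries out the first oxidative steps in the endoplasmic reticulum, had 0 in both libraries. A count of 0 allows up to 3 counts per library, and with these spread over the mean length of H6pd transcripts G6pdx TPM was at least 887-fold higher in replicate 1 and 947-fold in replicate 2. That bound is for TPM from expected counts, and the deposited posterior mean TPM was 62.1 and 72.0 for G6pdx, against 0.29 and 0.31 for H6pd. The transketolase-like gene Tktl1 had 1 and 0 counts, and Tktl2 had 0 in both libraries.

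The coding sequences of G6pdx and G6pd2 are shown over their first 60 bases, from the GENCODE M21 transcripts, because these differences let reads be told apart. Capitals mark the bases that differ.
G6pdx: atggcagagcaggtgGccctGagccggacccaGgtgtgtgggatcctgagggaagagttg
G6pd2: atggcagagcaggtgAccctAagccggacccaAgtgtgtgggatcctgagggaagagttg

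Compared without gaps over 1539 bases, 94.3% of positions were identical. Of the 36-base windows in the G6pdx coding sequence, 16.1% also occur in that of G6pd2, so most reads can be assigned to 1 copy. Over all transcripts, 78.6% of G6pdx windows occurred in no other gene. Besides G6pd2, the shared windows lay in Ikbkg, a gene on the opposite strand that overlaps G6pdx and had 39.1 and 43.3 TPM. Whether counting used strand is not given in the sources used here, so reads of G6pdx and Ikbkg in this overlap cannot be told apart. With the whole TPM of Ikbkg and G6pd2 added, G6pdx came to 112 TPM in place of 70.5 TPM. This is an upper estimate, since only 11.5% of G6pdx windows occur in Ikbkg.

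Shares of windows found in no other gene were 80.7% for Pgls, which overlaps Fam129c, 98.5% for Pgd, 94.5% for Rpia, 83.9% for Rpe, which overlaps the opposite-strand gene Kansl1l, 99.9% for Tkt and 88.3% for Taldo1. The overlapping genes were low, with 6.18 and 5.38 TPM for Fam129c and 1.32 and 1.69 TPM for Kansl1l. Gm17823, a processed pseudogene that holds 11.7% of the Taldo1 windows, was not analysed here.

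Downstream of the pathway, ribose 5-phosphate is activated to PRPP, the precursor of nucleotides. Among 13 genes of pentose and ribose handling, 11 were detected, with a median of 15.9 TPM. Pgm2, a phosphopentomutase gene, led at 64.4 ± 0.156 TPM (SD, n = 2), followed by Pgm1 at 41.7 ± 0.0283 TPM, Dera, the deoxyribose-phosphate aldolase gene, at 35.7 ± 0.764 TPM, and the PRPP synthetase gene Prps1 at 34.3 ± 5.82 TPM. The regulatory subunit gene Prpsap1 had 30.8 ± 3.78 TPM.

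Prps1l3, at 18.4 ± 3.11 TPM, had 72.6% of its windows in no other gene and Prps1 84.2%, so their levels are uncertain. Coding transcripts held 37.1% and 38.2% of Prps1 TPM and 30.5% and 27.2% of Prps2 TPM. Prps1 exceeded Prps2, the other widely expressed synthetase gene, by 1.91 ± 0.34 on the log2 scale over all transcripts and by 2.30 over coding ones. Tigar, whose product lowers glycolytic flow in favour of the pathway, had 7 and 6 counts, or 0.12 and 0.11 TPM, and Prps1l1 had 0 counts.

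Of 11 other NADPH producers 7 were detected, with a median of 13.6 TPM. The mitochondrial malic enzyme gene Me2, whose product prefers NAD, stood highest at 248 ± 1.76 TPM (SD, n = 2), then the folate enzyme genes Mthfd2 at 115 ± 3.17 TPM and Mthfd1 at 38.9 ± 0.488 TPM. The cytosolic malic enzyme gene Me1 had 27.99 ± 1.03 TPM, with 65.5% of its windows in no other gene, so its level is uncertain. The isocitrate dehydrogenase genes Idh1 and Idh2 had 19.2 ± 0.530 TPM and 13.6 ± 1.27 TPM, and coding transcripts held 38.97% and 32.80% of Idh2 TPM. G6pdx thus exceeded Idh1 in both libraries, by 1.87 ± 0.12 on the log2 scale. Me3, Mthfd2l, Aldh1l1 and Aldh1l2 were below 1 TPM in both libraries.

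Of 13 genes of NADPH use and NADP supply 12 were detected, and their median was 66.5 TPM. Blvrb, the biliverdin reductase B gene, reached 1924 ± 137 TPM (SD, n = 2), above Tkt, followed by the ribonucleotide reductase gene Rrm2 at 233 ± 37.3 TPM. Next were the mitochondrial NAD kinase gene Nadk2 at 153 ± 1.35 TPM, Fasn at 143 ± 15.6 TPM and Rrm1 at 141 ± 5.37 TPM. Gsr, the glutathione reductase gene that uses the pathway's NADPH, stood lower at 27.9 ± 2.11 TPM. Coding transcripts held only 11.3% and 8.33% of Nadk2 TPM, so its level is not that of coding mRNA, and 41.7% and 41.2% of Fasn TPM. Txnrd3 was below 1 TPM.

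Of 13 glycolysis genes at the steps that share sugar phosphates with the pathway 10 were detected, with Aldoa, Gapdh, Tpi1, Gpi1, Hk1 and Pfkp highest, and their median was 152 TPM. Tkt lay above Hk1 and Pfkp, and Hk2, at 46.3 TPM, below all enzyme genes but Rpe. Coding transcripts held 39.8% and 38.2% of Gapdh TPM and 58.0% and 55.0% of Pfkp TPM. G6pdx lay 25.2-fold below Gpi1, whose product takes glucose 6-phosphate into glycolysis, at a log2 ratio of -4.65 ± 0.01 (SD, n = 2). Without division by length the difference was 19.5-fold. Windows found in no other gene made up 80.3% for Gpi1 and 78.6% for G6pdx. With sequence-sharing genes added G6pdx had an upper estimate of 112 TPM, still below Gpi1, for which no such estimate was made. Gpi1 had 1642 and 1904 TPM. Hk3 and the gluconeogenic genes Fbp1 and Fbp2 had 0 counts in both libraries.

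**Figure D5:**
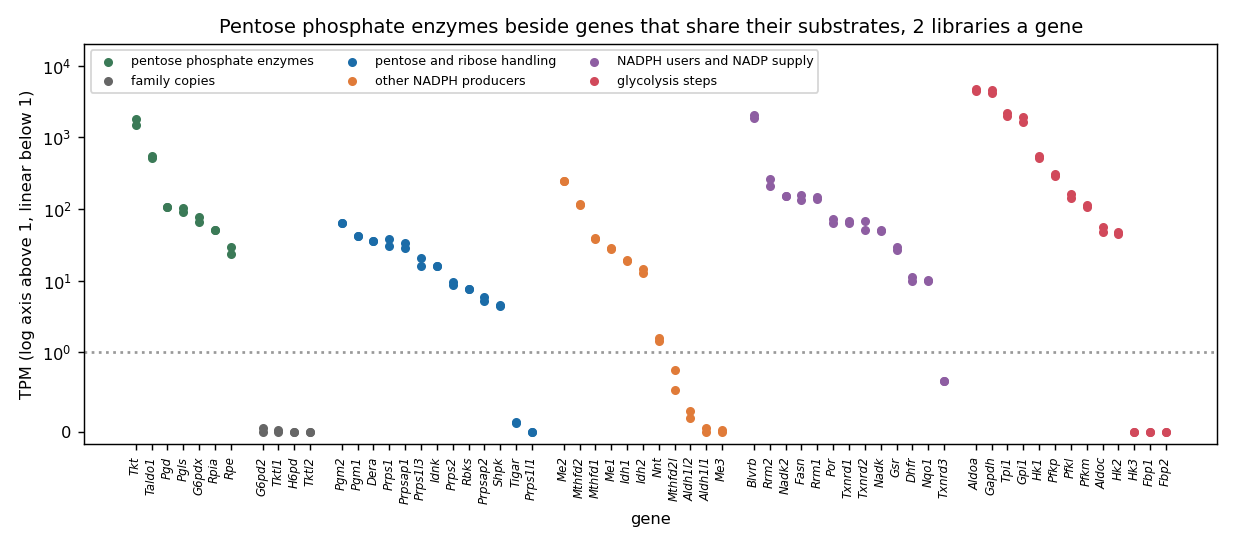
TPM (log axis above 1, linear below 1) of the 7 enzyme genes and 5 groups of related genes, with a point for each library. Family copies lie near 0, and Tkt and Taldo1 stand within the range of the glycolysis genes, between 45.1 and 4765 TPM where detected.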

How the data were processed

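Per the labels, 2 poly(A) RNA-seq libraries form 1 group. The deposited file manifests name assembly mm10 and annotation M4 of GENCODE. Which aligner and quantifier made the tables is not given in the sources used here. As read from the headers, the authors deposited expected counts (estimates that share a read among the places it fits), TPM, posterior mean TPM and the percent of gene TPM on each transcript. Length minus effective length gave 36-base reads.

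Symbols, transcript classes and coordinates came from GENCODE M21, on the same assembly, which matched 99.8% of expected counts in each library. Detection was 1 TPM or more in both libraries. Coding TPM is the sum over transcripts that M21 calls protein-coding. Windows of 36 bases were compared with all M21 transcripts on both strands. In 1 alternative the whole TPM of genes sharing at least 5% of a member's windows was added, except Gm17823, which was not analysed here. TMM factors came from edgeR 4.0.16 in R 4.3.3 on expected counts rounded to whole numbers.

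The members and gene lists were chosen with earlier results of these data known. Up to 6 genes a list were named, highest first, and all family copies. Fewer were described, 1 gene of the NADPH use list is not reported here and was left out of its counts, and others were named after their values were seen. No gene was named for a like pattern, since 2 libraries of 1 group give none. The SD between the libraries may be technical. Intervals and floors cover counting error only.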

Additional observations from a re-analysis of the deposited data

How the results depend on the processing

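All 7 genes stayed detected at 10 TPM over all transcripts, though not the coding transcripts of Rpe, in posterior mean TPM and in each library alone, and 0 of 7 passed 1.5-fold between libraries under total or TMM scaling or without a count filter. The log2 ratio of oxidative to non-oxidative TPM, -3.04, was -2.90 without division by length, -2.40 over coding transcripts, and ranged from -3.10 to -2.99 with 1 library left out. In alternatives chosen after seeing the data it was -2.81 with the whole TPM of sequence-sharing genes added and -1.16 without Tkt. Without division by length 4 of the 7 genes kept their rank in mean CPM, and Pgls fell below G6pdx, at a log2 ratio of -1.05. Pgls also fell below Rpia in that mean, but in replicate 1 only when each library was read alone. With sequence-sharing genes added, G6pdx had an upper estimate of 112 TPM, above Pgd and Pgls. With n = 2 a mean without 1 library always lies within the SD, so those values say nothing of stability. No pseudogene carries a member's symbol with -ps in the annotation, so that alternative was not run, nor were ratios to H6pd and Tktl1, at 0 or 1 count. No paired analysis was possible because the libraries form 1 group. At this depth a gene without reads could hold up to 0.147 CPM in replicate 1 and 0.162 in replicate 2.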
